A study of Arabidopsis thaliana with 9 samples.

Results

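The core cell cycle and DNA replication genes described here are 41 loci of Arabidopsis thaliana, taken by locus identifier from the 37361 loci of the deposited count tables. They hold 17 cyclins of the A, B and D types, 5 cyclin-dependent kinases (CDKs), the CDK inhibitors KRP1 and KRP2, the regulators E2Fa, E2Fb, DEL1 and RBR, the licensing factors CDC6 and CDT1a, MCM2 to MCM7, PCNA1 and PCNA2, the kinases AUR1 and AUR2, and the cytokinesis syntaxin KN. All 41 passed the filter on low counts, which kept 22400 loci in all, so every one of them entered the tests. Messenger RNA was sequenced from whole seedlings of 3 genotypes, thp1-5, sac3bc and Col, with 3 libraries each. Col is the wild-type accession. The labels give the mutants by these names alone, with no word on how the alleles were made. THP1 and the SAC3 proteins are subunits of TREX-2, a complex at the nuclear pore that links transcription to mRNA export. All 3 genotypes were 14 days old, grew on 1/2 MS medium with 1% sucrose under 16 h of light and 8 h of dark at 22 °C, and received no treatment.

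A plant cell enters division when D-type cyclins, bound to CDKA;1, phosphorylate the retinoblastoma-related protein RBR and release E2F factors, which switch on the genes of S phase. Before S phase, CDC6 and CDT1a load the MCM helicase on the origins, and PCNA then clamps the polymerases to DNA. A-type and B-type cyclins with the plant-specific B-type CDKs carry the cell through G2 into mitosis. KRP proteins inhibit CDK complexes, and plant cells that leave this cycle often go on to copy their DNA without dividing. In a seedling, dividing cells are a minority in root tips, shoot apices, young leaves and the stomatal lineage. In bulk RNA, a change in the number of such cells and a change in the RNA of each cell cannot be told apart.

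Many mitotic genes carry one kind of short word before their starts and many replication genes another, so the stretches that hold such words are shown first. MSA words (mitosis-specific activator, bound by MYB3R factors) were searched as CCAACGG and CTAACGG, and E2F words as TTTCCCGC, TTTGGCGC, TTTCGCGC and TTTGCCGC, on both strands of the 300 bases before each gene start in RefSeq's TAIR10.1 assembly. No MSA word overlaps an E2F word, and no member held both kinds. MSA words stood before 6 of the 41 members (14.6%) and before 803 of 27443 protein-coding genes (2.93%). All 6 are B-type cyclins, out of 8 B-type cyclins. E2F words stood before 7 members (17.1%) and 432 protein-coding genes (1.57%). They are MCM2 to MCM6, RBR and the cyclin CYCD3;3. A match is a run of letters and does not show that a factor binds there.

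The stretches below run 5′ to 3′ on the gene's own strand, with the words in capitals (a word on the other strand appears as its reverse complement). The cyclin stretches lie at chr4:17624348-17624384 (minus strand), chr5:1861704-1861863 (minus), chr3:3627293-3627352 (minus) and chr4:16901409-16901491 (plus), in the order printed. CYCB1;2 held 4 MSA words, at 145, 69, 45 and 11 bases before its start.
CYCB1;1: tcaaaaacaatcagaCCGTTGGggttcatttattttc
CYCB1;2: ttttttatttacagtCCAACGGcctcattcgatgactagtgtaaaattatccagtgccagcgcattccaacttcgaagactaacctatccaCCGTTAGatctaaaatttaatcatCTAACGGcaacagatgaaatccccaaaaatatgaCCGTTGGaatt
CYCB1;3: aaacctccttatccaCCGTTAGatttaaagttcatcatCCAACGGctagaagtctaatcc
CYCB2;2: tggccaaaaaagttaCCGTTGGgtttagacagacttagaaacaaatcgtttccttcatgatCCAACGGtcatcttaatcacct

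The MCM stretches lie at chr1:16970185-16970213 (plus) for MCM2, chr5:18773854-18773891 (minus) for MCM3, chr2:7130742-7130779 (minus) for MCM4, chr2:3527501-3527534 (minus) for MCM5 and chr5:18010691-18010728 (minus) for MCM6. Each held 1 E2F word, between 14 bases (MCM2) and 170 bases (MCM3) before the start.
MCM2: aaattggcgccaataTTTCCCGCctaatc
MCM3: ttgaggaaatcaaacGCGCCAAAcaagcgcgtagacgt
MCM4: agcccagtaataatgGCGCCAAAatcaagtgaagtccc
MCM5: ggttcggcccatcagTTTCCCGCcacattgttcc
MCM6: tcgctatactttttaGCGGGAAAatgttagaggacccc

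Libraries held 12814326 to 17923310 counts. Levels are given as CPM (counts of a gene relative to the size of its library), scaled by TMM factors, which were 1.05 to 1.06 in thp1-5, 1.089 to 1.095 in sac3bc and 0.863 to 0.870 in Col. A gene was called higher or lower at an adjusted p under 0.05 in edgeR's quasi-likelihood F-test over all 22400 genes, and the verbs rose and fell are kept for such calls. As a check of the labels, THP1 had 11.1 to 12.7 CPM in thp1-5, 5.0 to 6.89 CPM in sac3bc and 11.6 to 14.1 CPM in Col, so that it was low in the mutant not named for it and overlapped Col in thp1-5. SAC3B had 30.8 to 36.4 CPM in thp1-5, 23.1 to 27.7 CPM in sac3bc and 46.7 to 47.2 CPM in Col, and fell in both mutants. SAC3C had 12.8 to 13.7 CPM in thp1-5, where it was not called, 7.56 to 7.96 CPM in sac3bc, where it fell, and 14.3 to 15.8 CPM in Col. SAC3A had 36.7 to 40.1 CPM in thp1-5, 12.1 to 13.9 CPM in sac3bc and 59.4 to 67.4 CPM in Col, and fell in both mutants. In sac3bc, which is not named for it, SAC3A fell most of these 4 genes. Its log2 fold change there was -2.32, against -1.03 for THP1, -0.87 for SAC3B and -0.97 for SAC3C. Counts over a whole gene cannot show an allele that changes only part of it. Nothing in the labels says that the libraries of a genotype came from separate plantings, so p-values measure the spread between these libraries alone.

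Most of the 41 genes were more abundant in both mutants than in Col. In thp1-5, 34 of 41 rose and 1 fell, CDKA;1, where 32.1% of all genes were called higher and 31.8% lower. In sac3bc, 31 rose and 3 fell, CDKA;1 and the D-type cyclins CYCD3;1 and CYCD3;2, where 35.0% of all genes were called higher and 33.0% lower. The median log2 fold change of the 41 was 0.52 in thp1-5 and 0.45 in sac3bc, and that of all genes tested was 0.01 in thp1-5 and 0.03 in sac3bc. Both comparisons use the same 3 Col libraries. All libraries of thp1-5 lay above all of Col for 34 of the 41 and below for 2, beside 32.9% and 32.6% of all genes. In sac3bc 32 lay above Col in this way and 2 below, beside 35.8% and 33.5% of all genes. Between the mutants, 15 of the 41 lay apart and higher in thp1-5 and 1 lower, beside 17.6% and 17.1% of all genes. The summed level of the 41 was 814 to 847 CPM in thp1-5, 758 to 775 CPM in sac3bc and 606 to 611 CPM in Col, so that the 3 genotypes did not overlap. Scaling by total counts moves the median of all genes up by 0.29 in thp1-5 and 0.34 in sac3bc. The median of the 41 stands 0.50 above that of all genes in thp1-5 and 0.42 above it in sac3bc under either scaling. But no member was called lower with total counts, where 3614 of 22400 genes were in thp1-5 and 3636 in sac3bc.

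**Figure D1:**
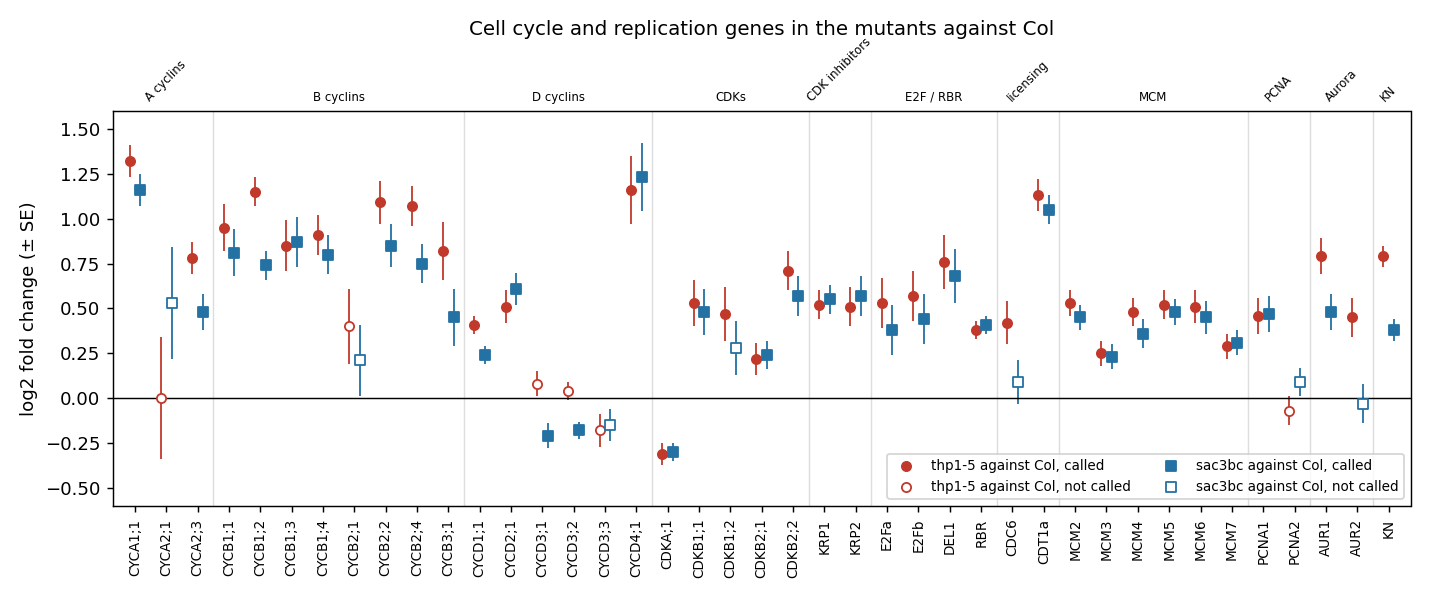
Log2 fold change against Col of the 41 genes by role, with its standard error as bars. Circles are thp1-5, squares are sac3bc, and open symbols did not pass the test. Most points lie above 0, from 1.32 for CYCA1;1 in thp1-5, while CDKA;1 lies at -0.31 in thp1-5 and -0.30 in sac3bc, a fall that is not called when libraries are scaled by total counts.

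At least a 2-fold rise was rarer. It was called for 6 of the 41 in thp1-5, where 4.95% of all genes rose as far. In sac3bc it was called for 3 of the 41, about the same share as the 7.00% of all genes. CYCA1;1, CYCD4;1 and CDT1a reached it in both mutants, and CYCB1;2, CYCB2;2 and CYCB2;4 in thp1-5.

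Among the D-type cyclins, which link growth signals to the start of the cycle, members moved apart. CYCD4;1 (AT5G65420), a cyclin known from divisions in the stomatal lineage of the hypocotyl, rose most. It had 4.69, 5.14 and 5.07 CPM in thp1-5, 5.72, 4.89 and 5.10 CPM in sac3bc, and 1.94, 2.43 and 2.25 CPM in Col. Every mutant library was above every Col library, with a log2 fold change of 1.16 ± 0.19 in thp1-5 (SE, edgeR adjusted p = 6.92e-08) and 1.23 ± 0.19 in sac3bc (adjusted p = 3.07e-09). CYCD2;1 rose by 0.51 ± 0.09 in thp1-5 and 0.61 ± 0.09 in sac3bc. CYCD1;1 rose by 0.41 ± 0.05 in thp1-5 and 0.24 ± 0.05 in sac3bc.

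The 3 CYCD3 cyclins, known for holding leaf cells in division downstream of cytokinin, were not called higher in either mutant with TMM scaling. CYCD3;2 (AT5G67260) had 48.1, 47.6 and 46.2 CPM in thp1-5, 38.7, 40.8 and 42.2 CPM in sac3bc, and 46.0, 43.1 and 48.8 CPM in Col. The thp1-5 libraries lay within the Col range, and all sac3bc libraries lay below it. CYCD3;2 fell in sac3bc (-0.18 ± 0.05, edgeR adjusted p = 0.0025), as did CYCD3;1 (AT4G34160, at -0.21 ± 0.07, adjusted p = 0.00566), but with total counts the first was called higher (0.159) and the other was at 0.122 and not called. In thp1-5 total counts called both higher, the first at 0.331 (adjusted p = 3.40e-08) and the other at 0.366 (adjusted p = 2.43e-06). With TMM scaling, both calls of lower in sac3bc were lost without Col replicate 3, at edgeR adjusted p = 0.0591 for CYCD3;2 and 0.0672 for CYCD3;1. Without sac3bc replicate 3 the same call was lost for CYCD3;1 (0.0721). It had 26.1, 30.9 and 30.7 CPM in thp1-5, 23.9, 25.9 and 22.1 CPM in sac3bc, and 28.8, 25.3 and 29.5 CPM in Col, with Col overlapping both mutants. CYCD3;3 (AT3G50070) was at -0.18 ± 0.09 in thp1-5 and -0.15 ± 0.09 in sac3bc and was not called in either. Without Col replicate 3 it was called lower in thp1-5 (-0.235, adjusted p = 0.038), and with total counts it was called higher in sac3bc (0.187). It had 14.8, 15.3 and 15.5 CPM in thp1-5, 14.3, 16.1 and 16.2 CPM in sac3bc, and 16.5, 19.1 and 16.1 CPM in Col.

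CDKA;1 (AT3G48750), the kinase partner of D-type cyclins that is needed throughout the cycle, was the most abundant of the 41 per length in Col and the one gene called lower in both mutants. It had 36.7, 38.2 and 37.4 CPM in thp1-5, 39.0, 37.4 and 36.4 CPM in sac3bc, and 44.5, 45.6 and 48.8 CPM in Col. All mutant libraries were below all Col libraries, with a log2 fold change of -0.31 ± 0.06 in thp1-5 (edgeR adjusted p = 1.09e-06) and -0.30 ± 0.05 in sac3bc (adjusted p = 4.78e-07), while total-count scaling gave -0.018 in thp1-5 and 0.033 in sac3bc with no call.

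The B-type CDKs, which are expressed around G2 and mitosis, stood on the other side of Col. CDKB2;2 (AT1G20930) had 12.8, 14.1 and 13.7 CPM in thp1-5, 12, 12.8 and 12.1 CPM in sac3bc, and 8.12, 8.17 and 8.48 CPM in Col. It rose by 0.71 ± 0.11 in thp1-5 and 0.57 ± 0.11 in sac3bc, with no overlap between either mutant and Col. CDKB1;1 (AT3G54180) rose by 0.53 ± 0.13 in thp1-5 and 0.48 ± 0.13 in sac3bc. CDKB1;2 (AT2G38620) rose in thp1-5 (0.47 ± 0.15) and was at 0.28 ± 0.15 in sac3bc, where it was not called (edgeR adjusted p = 0.0966). Its call in thp1-5 was lost without thp1-5 replicate 3 (adjusted p = 0.0619) or Col replicate 3 (0.0784), and a call in sac3bc was gained without Col replicate 2 (0.0224) and with total counts, which gave 0.612 (adjusted p = 0.00014). CDKB2;1 (AT1G76540) moved least, with 18.1 to 21.0 CPM in thp1-5, 19.5 to 20.8 CPM in sac3bc and 15.7 to 18.3 CPM in Col, so that thp1-5 overlapped Col. Its 0.22 ± 0.09 in thp1-5 and 0.24 ± 0.08 in sac3bc were called, but DESeq2 called neither. In thp1-5 the call was lost without Col replicate 1 (0.108) or 3 (0.0652) or thp1-5 replicate 1 (0.107) or 3 (0.0578), and in sac3bc without Col replicate 1 (0.0518).

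Of the 3 A-type cyclins, CYCA1;1 and CYCA2;3 rose. CYCA1;1 (AT1G44110) had 23.8, 24.6 and 22.0 CPM in thp1-5, 21.2, 19.7 and 22.1 CPM in sac3bc, and 8.82, 9.42 and 9.90 CPM in Col. That is 2.50-fold the Col level in thp1-5 and 2.23-fold in sac3bc, and the mutant libraries were all above Col. CYCA2;3, known for restraining the turn to DNA copying without division, rose by 0.78 ± 0.09 in thp1-5 and 0.48 ± 0.10 in sac3bc. CYCA2;1 (AT5G25380) was the least abundant member, with 1.04, 1.41 and 0.704 CPM in thp1-5, 1.49, 1.79 and 1.38 CPM in sac3bc, and 1.41, 0.957 and 0.900 CPM in Col. Its genotypes overlapped, and its log2 fold changes of 0.00 ± 0.34 in thp1-5 and 0.53 ± 0.31 in sac3bc carry the widest errors of the 41. With total counts it was called higher in sac3bc (0.861, adjusted p = 0.00912).

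Of the 8 B-type cyclins, the partners of CDKs at mitosis, 7 rose in each mutant, and CYCB2;1 passed the test in neither. CYCB1;2 (AT5G06150), whose stretch with 4 MSA words is shown above, had 33.0, 36.6 and 31.9 CPM in thp1-5, 25.4, 26.1 and 25.4 CPM in sac3bc, and 14.6, 14.8 and 16.4 CPM in Col. The 3 genotypes were apart, with thp1-5 highest, at 1.15 ± 0.08 in thp1-5 (edgeR adjusted p = 2.65e-29) and 0.74 ± 0.08 in sac3bc (adjusted p = 6.57e-16). Part of its sequence is 97.7% identical to CYCB1;5 (AT1G34460), so reads of the 2 loci could have been split between them in counting. CYCB1;5 rose by 0.40 ± 0.18 in thp1-5 and was at -0.39 ± 0.19 in sac3bc, where it was not called. It was 0.78 ± 0.18 higher in thp1-5 than in sac3bc, the same direction as CYCB1;2. The part of such reads in the values of CYCB1;2 was not tested. CYCB1;3 (AT3G11520) had 7.51, 9.15 and 9.57 CPM in thp1-5, 9.22, 8.74 and 8.77 CPM in sac3bc, and 4.85, 5.15 and 4.58 CPM in Col. The 2 mutants overlapped each other and lay above Col, with the largest rise of the B-type cyclins in sac3bc (0.87 ± 0.14). CYCB2;1 (AT2G17620) had 3.27, 3.62 and 3.73 CPM in thp1-5, 3.95, 2.95 and 2.55 CPM in sac3bc, and 2.73, 2.43 and 2.93 CPM in Col. Its 0.40 ± 0.21 in thp1-5 and 0.21 ± 0.20 in sac3bc were not called (adjusted p = 0.0856 in thp1-5 and 0.353 in sac3bc), although its thp1-5 libraries lay above Col. With total counts it was called higher in both mutants. The other 5 ranged from 0.82 (CYCB3;1) to 1.09 (CYCB2;2) in thp1-5 and, between the same 2 genes, from 0.45 to 0.85 in sac3bc. The lowest of these rises, 0.45, was lost without Col replicate 3 (adjusted p = 0.0559) and under DESeq2 (0.0541).

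The B-type cyclin that passed the test in neither mutant is among the 6 with an MSA word, and the 2 without one, CYCB1;4 and CYCB3;1, rose in both mutants. An MSA word in this window was thus present in B-type cyclins that rose and in the one that did not pass the test.

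**Figure D2:**
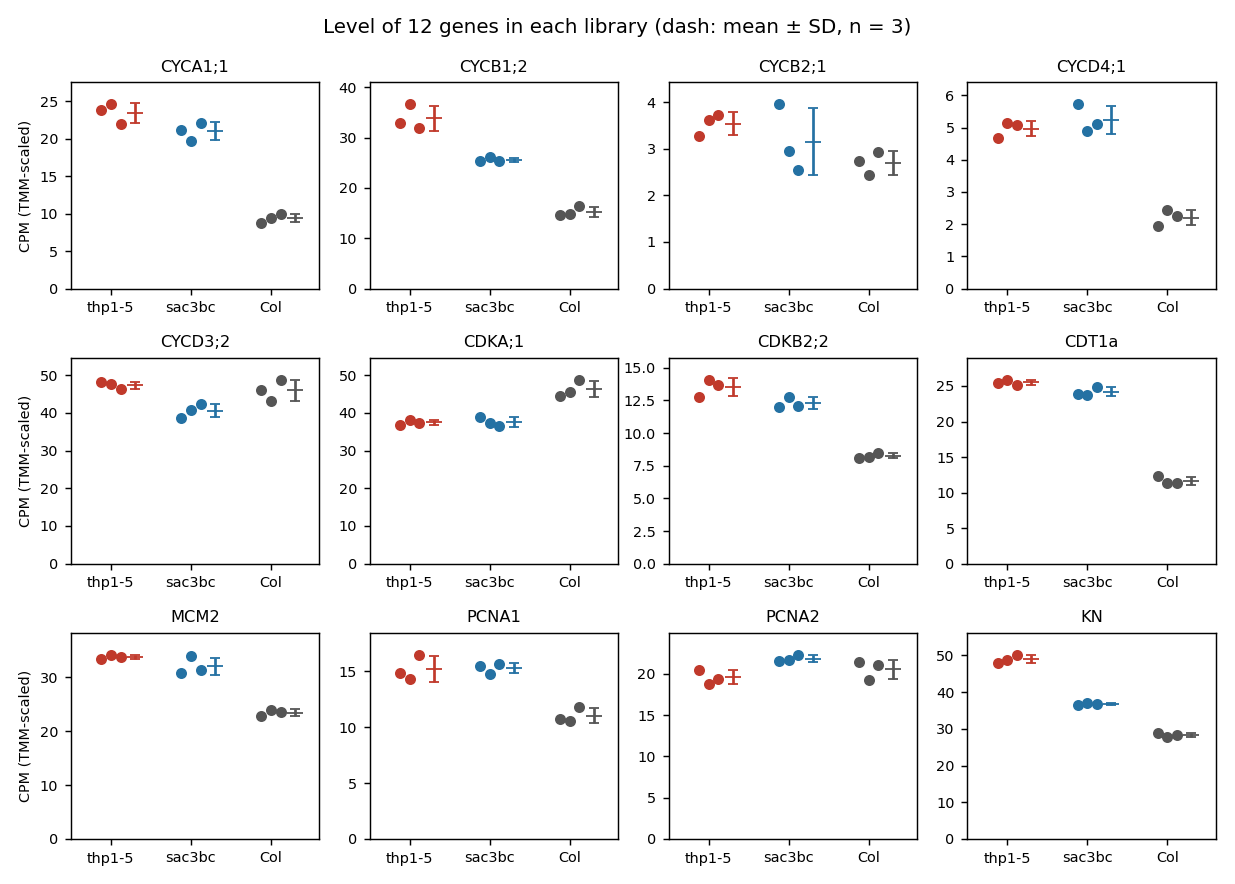
CPM of 12 of the genes in each library of thp1-5, sac3bc and Col, where points are libraries and the dash beside them is the mean with its SD (n = 3). For CYCA1;1, CYCB1;2, CYCD4;1, CDKB2;2, CDT1a, MCM2, PCNA1 and KN both mutants stand clear above Col, and for CYCB2;1, CYCD3;2 and PCNA2 1 or both mutants overlap Col or lie next to it.

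Both CDK inhibitors rose alongside the mitotic cyclins. KRP1 (AT2G23430) had 21.8, 22.9 and 24.2 CPM in thp1-5, 22.6, 23.3 and 24 CPM in sac3bc, and 15.6, 16.7 and 15.5 CPM in Col. KRP2 (AT3G50630) had 12.2, 11.7 and 12.4 CPM in thp1-5, 13, 11.9 and 13 CPM in sac3bc, and 10.3, 7.66 and 7.73 CPM in Col. For both genes all mutant libraries were above all Col libraries. KRP1 rose by 0.52 ± 0.08 in thp1-5 and 0.55 ± 0.08 in sac3bc, and KRP2 by 0.51 ± 0.11 in thp1-5 and 0.57 ± 0.11 in sac3bc.

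All 4 genes of the E2F and retinoblastoma group rose in both mutants. DEL1 (AT3G48160), an atypical E2F that represses the onset of endoreduplication, had 8.85, 7.63 and 6.05 CPM in thp1-5, 7.84, 7.42 and 6.02 CPM in sac3bc, and 4.15, 4.56 and 4.50 CPM in Col. RBR (AT3G12280), the repressor of E2F factors, had 58.1, 53.8 and 55.1 CPM in thp1-5, 54.1, 55.3 and 60.2 CPM in sac3bc, and 44.5, 43.2 and 40.5 CPM in Col. Both genes were above Col in all 6 mutant libraries, DEL1 by 0.76 ± 0.15 in thp1-5 and 0.68 ± 0.15 in sac3bc and RBR by 0.38 ± 0.05 in thp1-5 and 0.41 ± 0.05 in sac3bc. The activator E2Fa (AT2G36010) had 7.22, 8.70 and 8.16 CPM in thp1-5, 5.95, 8.05 and 7.70 CPM in sac3bc, and 5.73, 5.81 and 5.25 CPM in Col. E2Fa rose by 0.53 ± 0.14 in thp1-5 and 0.38 ± 0.14 in sac3bc, and E2Fb by 0.57 ± 0.14 in thp1-5 and 0.44 ± 0.14 in sac3bc. In sac3bc the call of E2Fa was lost without Col replicate 3 (edgeR adjusted p = 0.059), sac3bc replicate 2 (0.0859) or sac3bc replicate 3 (0.0541) and under DESeq2 (0.0714), and that of E2Fb without Col replicate 3 (0.052).

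Of the licensing factors, CDT1a (AT2G31270) rose about as far as the cyclins at the top of the range, 2.19-fold in thp1-5 and 2.08-fold in sac3bc, and CDC6 less. CDT1a had 25.4, 25.9 and 25.2 CPM in thp1-5, 23.9, 23.8 and 24.9 CPM in sac3bc, and 12.3, 11.3 and 11.4 CPM in Col, with no overlap. Its log2 fold change was 1.13 ± 0.09 in thp1-5 (edgeR adjusted p = 5.85e-25) and 1.05 ± 0.08 in sac3bc (adjusted p = 1.69e-23). CDC6 (AT2G29680) had 10.3, 10.8 and 9.43 CPM in thp1-5, 9.27, 7.31 and 7.91 CPM in sac3bc, and 7.06, 8.61 and 7.20 CPM in Col. It rose in thp1-5 (0.42 ± 0.12) and overlapped Col in sac3bc (0.09 ± 0.12), where it was not called except with total counts.

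The 6 subunits of the MCM helicase, which act as 1 ring, all rose in both mutants. Their log2 fold changes ran from 0.25 (MCM3) to 0.53 (MCM2) in thp1-5 and from 0.23 (MCM3) to 0.48 (MCM5) in sac3bc. MCM2 (AT1G44900) had 33.4, 34.2 and 33.8 CPM in thp1-5, 30.9, 33.9 and 31.3 CPM in sac3bc, and 22.8, 24 and 23.6 CPM in Col. MCM3 (AT5G46280), with the smallest rise, had 27.4, 28.0 and 28.6 CPM in thp1-5, 26.4, 27.9 and 28.5 CPM in sac3bc, and 23.1, 23.1 and 24.5 CPM in Col. In each of the 6, no mutant library came down to the Col range. Of all genes, 32.9% stood above Col in this way in thp1-5 and 35.8% in sac3bc. MCM5 (AT2G07690) had 26.8, 28.9 and 26.7 CPM in thp1-5, 26.2, 29.0 and 25.6 CPM in sac3bc, and 17.2, 20.7 and 19.6 CPM in Col. MCM7, the one MCM gene without an E2F word in its window, was at 0.29 ± 0.07 in thp1-5 and 0.31 ± 0.07 in sac3bc, within the range of the other 5. Of the 7 members with an E2F word, 6 rose in each mutant, and CYCD3;3 was the other.

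The 2 PCNA genes, 85.6% identical along their aligned bases, encode the sliding clamp and gave unlike values. PCNA1 (AT1G07370) had 14.9, 14.3 and 16.5 CPM in thp1-5, 15.5, 14.8 and 15.7 CPM in sac3bc, and 10.7, 10.6 and 11.8 CPM in Col. It rose by 0.46 ± 0.10 in thp1-5 and 0.47 ± 0.10 in sac3bc, with all mutant libraries above Col. PCNA2 (AT2G29570) had 20.5, 18.8 and 19.4 CPM in thp1-5, 21.5, 21.7 and 22.3 CPM in sac3bc, and 21.4, 19.2 and 21.0 CPM in Col. Its log2 fold change was -0.07 ± 0.08 in thp1-5 and 0.09 ± 0.08 in sac3bc, without a call in either, and with total counts it was called higher in both, at 0.216 in thp1-5 and 0.428 in sac3bc. Whether the 2 genes differ in their response was not tested. PCNA2 shares 23.6% of its exonic bases with ENOC on the opposite strand, which had 33.0 ± 2.00 CPM in thp1-5, 32.4 ± 1.51 CPM in sac3bc and 31.9 ± 1.13 CPM in Col (SD, n = 3).

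The Aurora kinases AUR1 and AUR2 act on the spindle and on the plane of division, and KN, the KNOLLE syntaxin, fuses vesicles at the new cell plate. AUR1 (AT4G32830) had 15.1, 15.9 and 18.6 CPM in thp1-5, 14.7, 12.1 and 13.4 CPM in sac3bc, and 10.2, 9.05 and 9.53 CPM in Col. It rose by 0.79 ± 0.10 in thp1-5 and 0.48 ± 0.10 in sac3bc, with both mutants above Col. AUR2 (AT2G25880) had 12.3, 13.1 and 13.2 CPM in thp1-5, 8.64, 8.47 and 10.6 CPM in sac3bc, and 10.3, 8.91 and 9.23 CPM in Col. It rose in thp1-5 (0.45 ± 0.11) and overlapped Col in sac3bc, where it was at -0.03 ± 0.11 and not called, but at 0.308 and called higher with total counts. KN (AT1G08560) had 48.0, 48.7 and 50.2 CPM in thp1-5, 36.6, 37.1 and 36.8 CPM in sac3bc, and 28.8, 27.7 and 28.2 CPM in Col. The 3 genotypes formed 3 separate steps, 0.79 ± 0.06 above Col in thp1-5 (edgeR adjusted p = 2.70e-25) and 0.38 ± 0.06 in sac3bc (adjusted p = 1.15e-08).

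Reads from these genes can be mixed with those of a neighbour, since no source used here states whether the counting was stranded. By the annotation, exons of 17 of the 41 overlap those of a neighbouring locus, in 16 cases on the opposite strand. KN shares 33.5% of its exonic bases with NPQ1 (AT1G08550), a chloroplast enzyme gene with 132 ± 4.32 CPM in thp1-5, 103 ± 4.37 CPM in sac3bc and 198 ± 2.80 CPM in Col (SD, n = 3). NPQ1 fell against Col in both mutants, where KN rose, and was 0.36 higher in thp1-5 than in sac3bc, the same direction as KN. AUR2 shares 36.9% with AT2G25890, which averaged 0.391 CPM in thp1-5, 0.192 CPM in sac3bc and 2.20 CPM in Col. AUR1 shares 19.2% with PFK6, which averaged 14.6 CPM in thp1-5, 13.6 CPM in sac3bc and 8.39 CPM in Col and rose in both mutants. CDKB1;2, DEL1 and CDKB2;2 share 13.8% to 18.3% of their exonic bases with a neighbour, and the other 10 at most 6.12%. The part of these neighbours in the members' counts was not tested. Of the 24 members that share no exonic base, 20 rose in each mutant and 1 fell. In the fit without loci that share exonic bases, 4788 of 14505 genes were higher and 4644 lower in thp1-5. In sac3bc 5224 were higher and 4871 lower.

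Set against each other, the mutants differed in 11 of the 41 genes, all higher in thp1-5 (12.1% of all genes were called higher in thp1-5 and 10.9% lower). The median log2 fold change of thp1-5 against sac3bc was 0.11 over the 41 and 0.00 over all genes. No member was called lower in edgeR. At an unadjusted p under 0.05 there was 1, PCNA2. DESeq2 called 0 members lower and 7 higher, beside 1303 of 23013 genes lower and 1981 higher. Total-count scaling called PCNA2 lower (-0.212, edgeR adjusted p = 0.025). Genes of mitosis made up 6 of the 11. They were KN (0.41 ± 0.05, edgeR adjusted p = 6.85e-11), CYCB1;2 (0.41 ± 0.06, adjusted p = 8.67e-08), AUR2 (0.48 ± 0.10, adjusted p = 0.000114), CYCB2;4 (0.32 ± 0.09), AUR1 (0.31 ± 0.09) and CYCB3;1 (0.38 ± 0.14). The other 5 were CYCA2;3 (0.30 ± 0.08), CYCD3;1 (0.29 ± 0.07), CYCD3;2 (0.22 ± 0.05), CYCD1;1 (0.17 ± 0.05) and CDC6 (0.33 ± 0.11).

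By role, 6 of the 15 B-type cyclins, B-type CDKs, Aurora kinases and KN were higher in thp1-5 than in sac3bc. Of these 15, the 4 B-type CDKs gave 0 calls. Also higher were 1 of the 10 licensing, MCM and PCNA genes (CDC6), 3 of the 6 D-type cyclins and 1 of the 3 A-type cyclins. DESeq2 called 3 of the 15, 0 of the 10 and 3 of the 6 D-type cyclins. Whether these shares differ was not tested. For the MCM genes the difference ran from -0.03 (MCM7) to 0.12 (MCM4), each with an SE of 0.06 to 0.08, and none was called. KRP1 (-0.02 ± 0.07), KRP2 (-0.07 ± 0.10), RBR (-0.03 ± 0.05) and CDT1a (0.08 ± 0.07) were not called either. These misses do not show equal levels. Not all of the 11 calls held. DESeq2 did not call CYCB2;4 (adjusted p = 0.0507), AUR1 (0.056), CDC6 (0.119) or CYCB3;1 (0.139). This last gene kept its call in only 1 of the 6 tests that left out a mutant library, the one without thp1-5 replicate 1, and CDC6 lost its call in 4 of these 6 (adjusted p = 0.0646 to 0.151). AUR1 lost it without thp1-5 replicate 3 (0.13) or sac3bc replicate 2 (0.0813), and CYCD1;1 without thp1-5 replicate 3 (0.0551). Among the 24 members that share no exonic base, 3 were called, all of them B-type cyclins. The fit without loci that share exonic bases called 3 of 24, near the share of all genes (1886 of 14505 higher in thp1-5). The other members called, KN, AUR1, AUR2, CDC6, CYCA2;3, CYCD1;1, CYCD3;1 and CYCD3;2, share exonic bases with a neighbour.

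**Figure D3:**
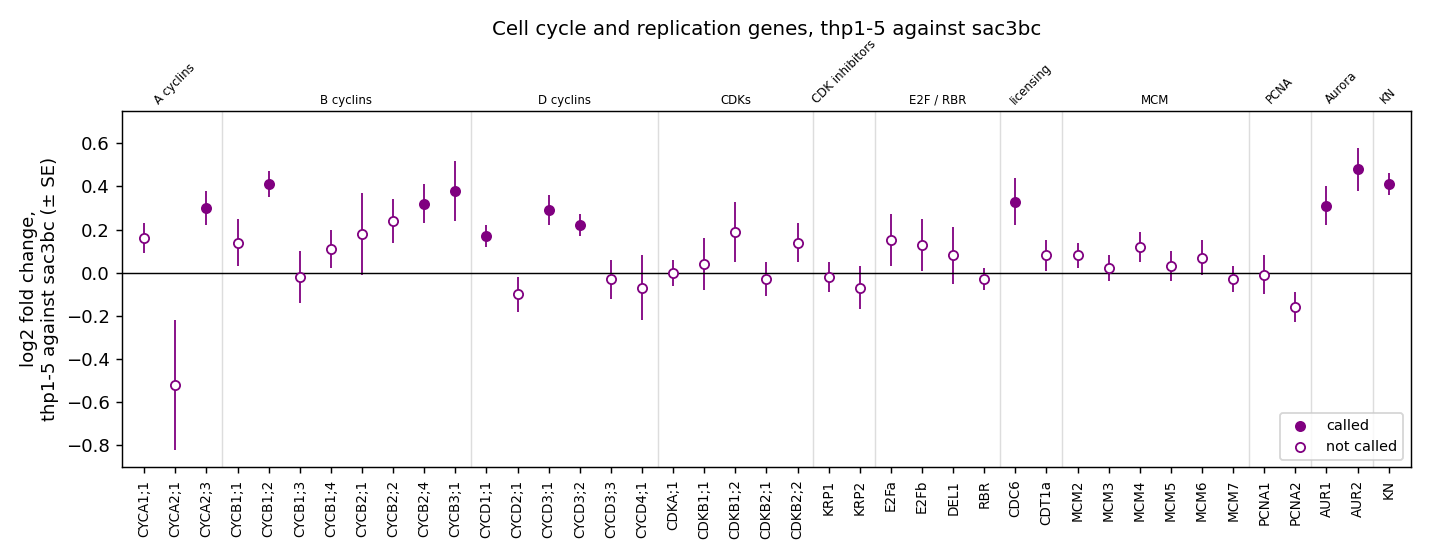
Log2 fold change of thp1-5 against sac3bc for the 41 genes by role, with its standard error as bars, where filled points passed the test. The filled points all lie above 0, from 0.17 to 0.48 (AUR2), while the MCM genes lie between -0.03 and 0.12.

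Compared per length, in RPKM, the reads of a gene scaled by its length and by the library's size, the members spanned a wide range. In Col the order began with CDKA;1 at 30.9 ± 1.49 RPKM, CYCD3;2 at 27.3 ± 1.70, KN at 20.4 ± 0.397, PCNA2 at 17.4 ± 0.997 and CYCD1;1 at 17.2 ± 0.486 RPKM (SD, n = 3). The last 2 of these lay within each other's spread. It ended with CYCB3;1 at 1.96 ± 0.207, CYCB2;1 at 1.62 ± 0.151, CYCD4;1 at 1.09 ± 0.122 and CYCA2;1 at 0.559 ± 0.144 RPKM. In thp1-5, KN was first, at 35.3 ± 0.829 RPKM, ahead of the cyclin (28.1 ± 0.566) and the kinase (25.0 ± 0.480) that led the order in Col. In sac3bc, these 3 genes lay closer, at 26.6 ± 0.173 RPKM for KN, 25.1 ± 0.864 for the kinase and 24.1 ± 1.05 for the cyclin, the last 2 within their spread. KN shares 33.5% of its exonic bases with NPQ1, and the part of NPQ1 reads in KN's level and place was not tested. CYCB1;2 was at 18.5 ± 1.34 RPKM in thp1-5 and 14.0 ± 0.236 RPKM in sac3bc, against 8.37 ± 0.543 RPKM in Col. The MCM genes stayed within 4.21 (MCM6) to 8.79 (MCM7) RPKM in Col.

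**Figure D4:**
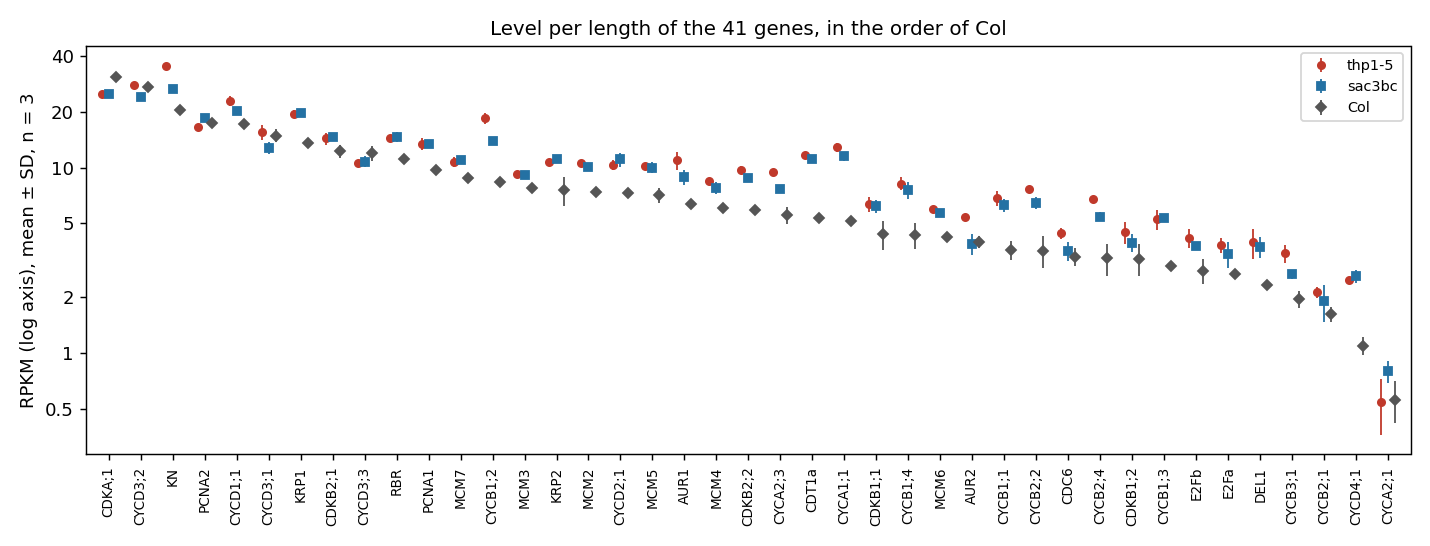
RPKM of the 41 genes in thp1-5, sac3bc and Col on a log axis, as mean and SD of 3 libraries, ordered by the Col level. The first gene in Col is at 30.9 RPKM, KN is highest in thp1-5 at 35.3 RPKM, and CYCA2;1 is lowest in all 3 genotypes.

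The rest of the machinery was read from 6 lists with 79 further genes, 76 of which were tested. In thp1-5, 53 rose (69.7%) and 4 fell, with a median log2 fold change of 0.48. In sac3bc 41 rose (53.9%) and 7 fell, with a median of 0.29. Of all genes tested, 32.1% were called higher and 31.8% lower in thp1-5, and 35.0% higher and 33.0% lower in sac3bc. With total counts 69 were higher in thp1-5 and 65 in sac3bc, and none was lower, so that every fall named in these 6 lists depends on the scaling. Of 22400 genes, 12538 were higher in thp1-5 and 13625 in sac3bc under that scaling. Of 11 further cyclins tested, 10 rose in thp1-5 and 8 in sac3bc, and none fell. At an unadjusted p under 0.05, 0 were lower in thp1-5 and 1 in sac3bc, and DESeq2 called none lower. CYCB2;3, a B-type cyclin, had 24.8, 27.9 and 24.3 CPM in thp1-5, 18.7, 15.6 and 17.4 CPM in sac3bc, and 8.20, 8.02 and 7.20 CPM in Col. The 3 genotypes were apart, at 1.73 ± 0.10 in thp1-5 and 1.14 ± 0.10 in sac3bc, more than any of the 41 in thp1-5. CYCA3;2, a cyclin of S phase, rose by 0.76 ± 0.08 in thp1-5 and 0.87 ± 0.08 in sac3bc.

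Of 12 further CDK partners and inhibitors tested, 6 rose and 1 fell in each mutant, and the other 5 were not called. For scale, 32.1% of all genes were called higher and 31.8% lower in thp1-5, and 35.0% higher and 33.0% lower in sac3bc. SMR1 (0.61 ± 0.06 in thp1-5 and 0.57 ± 0.06 in sac3bc) and SIM (0.61 ± 0.10 in thp1-5 and 0.75 ± 0.10 in sac3bc), inhibitors linked to endoreduplication, were among the 6 that rose. The kinase WEE1, which holds CDKs back when replication is disturbed, was at 1.32 ± 0.22 in thp1-5 and 1.16 ± 0.22 in sac3bc, and the inhibitor KRP7 at 1.32 ± 0.25 in thp1-5 and 1.58 ± 0.24 in sac3bc. Of 10 E2F partners, atypical E2Fs and MYB3R factors, 8 rose in thp1-5 and 6 in sac3bc. DPB, a partner of E2F, rose by 0.55 ± 0.08 in thp1-5 and 0.52 ± 0.08 in sac3bc. Of 10 genes of the anaphase-promoting complex (APC/C, which marks cyclins for breakdown) and its regulators, 7 rose and 1 fell in thp1-5, and 4 rose and 2 fell in sac3bc. CCS52A1, an APC/C activator of endoreduplication, rose by 0.92 ± 0.10 in thp1-5 and 0.94 ± 0.10 in sac3bc, and the subunit gene APC10 fell, with -0.26 ± 0.07 in thp1-5 and -0.44 ± 0.07 in sac3bc.

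Lists of further replication and mitosis genes are given side by side. Of 17 further replication genes, 10 rose in each mutant (58.8%), 1 fell in thp1-5 and 2 fell in sac3bc. Beside them, 32.1% of all genes were called higher in thp1-5 and 35.0% in sac3bc. TSO2, a subunit gene of ribonucleotide reductase, had 80.7, 84.2 and 73.6 CPM in thp1-5, 80.6, 80.7 and 79.6 CPM in sac3bc, and 45.7, 47.3 and 45.5 CPM in Col. Its 2 mutants overlapped and stood well above Col, at 0.79 ± 0.05 in thp1-5 and 0.80 ± 0.05 in sac3bc. ORC1B of the origin recognition complex (1.04 ± 0.13 in thp1-5 and 1.03 ± 0.13 in sac3bc) and FAS1 of chromatin assembly (0.93 ± 0.10 in thp1-5 and 0.77 ± 0.09 in sac3bc) rose likewise. Between the mutants, none of the 17 was called in edgeR, none was at an unadjusted p under 0.05, and DESeq2 called 0.

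Of 16 further genes of mitosis and cytokinesis, 12 rose and 1 fell in thp1-5, and 7 rose and 2 fell in sac3bc. That is 75.0% higher in thp1-5, where 32.1% of all genes were, and 43.8% in sac3bc, where 35.0% were. In sac3bc DESeq2 called 4 of the 16 higher, beside 6657 of 25795 genes. Between the mutants 7 of the 16 were higher in thp1-5 and 1 was lower, beside 12.1% of all genes higher and 10.9% lower. POK2, a kinesin that marks the division plane, had 34.3, 34.9 and 35.8 CPM in thp1-5, 20.5, 24.4 and 23.7 CPM in sac3bc, and 22.0, 23.8 and 23.1 CPM in Col. It stood above both other genotypes in thp1-5 (0.61 ± 0.07 against sac3bc, edgeR adjusted p = 1.47e-14), and sac3bc overlapped Col (-0.01 ± 0.07). CDC20.1, the APC/C activator of mitosis, had the same order, with 35.3, 34.7 and 35.4 CPM in thp1-5, 23.8, 23.5 and 23.7 CPM in sac3bc, and 25.9, 22.4 and 23.0 CPM in Col. The spindle factor TPX2 rose in both, by 1.25 ± 0.08 in thp1-5 and 0.75 ± 0.09 in sac3bc, and was 0.50 ± 0.07 higher in thp1-5 than in sac3bc.

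Markers of seedling tissues moved with the genotypes as well. Beside their counts, 32.1% of all genes were called higher and 31.8% lower in thp1-5, and 35.0% higher and 33.0% lower in sac3bc. All 8 mesophyll photosynthesis markers fell in both mutants, with a summed level of 40900 to 42500 CPM in thp1-5, 35500 to 36800 CPM in sac3bc and 64000 to 65400 CPM in Col. Of 8 stomatal lineage markers, 6 rose in thp1-5 and 5 in sac3bc, with a summed level of 131 to 136 CPM in thp1-5, 115 to 119 CPM in sac3bc and 94.1 to 101 CPM in Col. SPCH, the factor that starts the lineage, had 8.41, 6.95 and 6.90 CPM in thp1-5, 5.27, 5.05 and 5.36 CPM in sac3bc, and 3.0, 2.36 and 3.83 CPM in Col, so that the 3 genotypes did not overlap. Of the 8, 4 were also higher in thp1-5 than in sac3bc, where 12.1% of all genes were, among them SPCH (0.50 ± 0.14) and TMM (0.39 ± 0.07).

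Of 10 meristem markers tested of 14, 3 rose and 3 fell in each mutant, beside 32.1% of all genes higher and 31.8% lower in thp1-5 and 35.0% higher and 33.0% lower in sac3bc. Their summed level over the 14 was 110 to 114 CPM in thp1-5, 107 to 113 CPM in sac3bc and 148 to 160 CPM in Col. Most of this sum was CLV1, and without it the other 13 summed to 49.7 to 53.0 CPM in thp1-5, 42.2 to 48.2 CPM in sac3bc and 48.9 to 53.7 CPM in Col, so that thp1-5 overlapped Col. STM, which keeps the shoot meristem undifferentiated, fell by 1.19 in thp1-5 and by 1.32 in sac3bc on the log2 scale, and CLV1 fell by 0.74 in thp1-5 and by 0.63 in sac3bc. WOX5, of the root stem cell niche, had 1.02 to 1.71 CPM in thp1-5, 0.895 to 1.26 CPM in sac3bc and 0.294 to 0.353 CPM in Col and rose by 2.03 ± 0.45 in thp1-5 and 1.75 ± 0.45 in sac3bc. The stem cell genes WUS and CLV3 had 0 counts in all 6 mutant libraries and at most 2 counts in a Col library. Of 8 root markers, 6 rose and 2 fell in each mutant, with a summed level of 1860 to 1910 CPM in thp1-5, 1860 to 1910 CPM in sac3bc and 3780 to 3850 CPM in Col, most of it PYK10, which fell. Among the 6 that rose were PRP3 (0.85 ± 0.06 in thp1-5 and 1.52 ± 0.06 in sac3bc), LRX1 (0.98 ± 0.11 in thp1-5 and 1.64 ± 0.10 in sac3bc) and EXP7 (1.00 ± 0.13 in thp1-5 and 1.63 ± 0.12 in sac3bc). Between the mutants, these 3 of the 8 root markers were lower in thp1-5 than in sac3bc, 1 was higher and 4 were not called. Of all genes, 10.9% were called lower in thp1-5 than in sac3bc and 12.1% higher. The 11 members called between the mutants were higher in thp1-5. The other root marker that fell against Col, GL2, was not called lower in thp1-5 with total counts. The part of a changed tissue make-up in the values of the 41 genes was not tested.

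**Figure D5:**
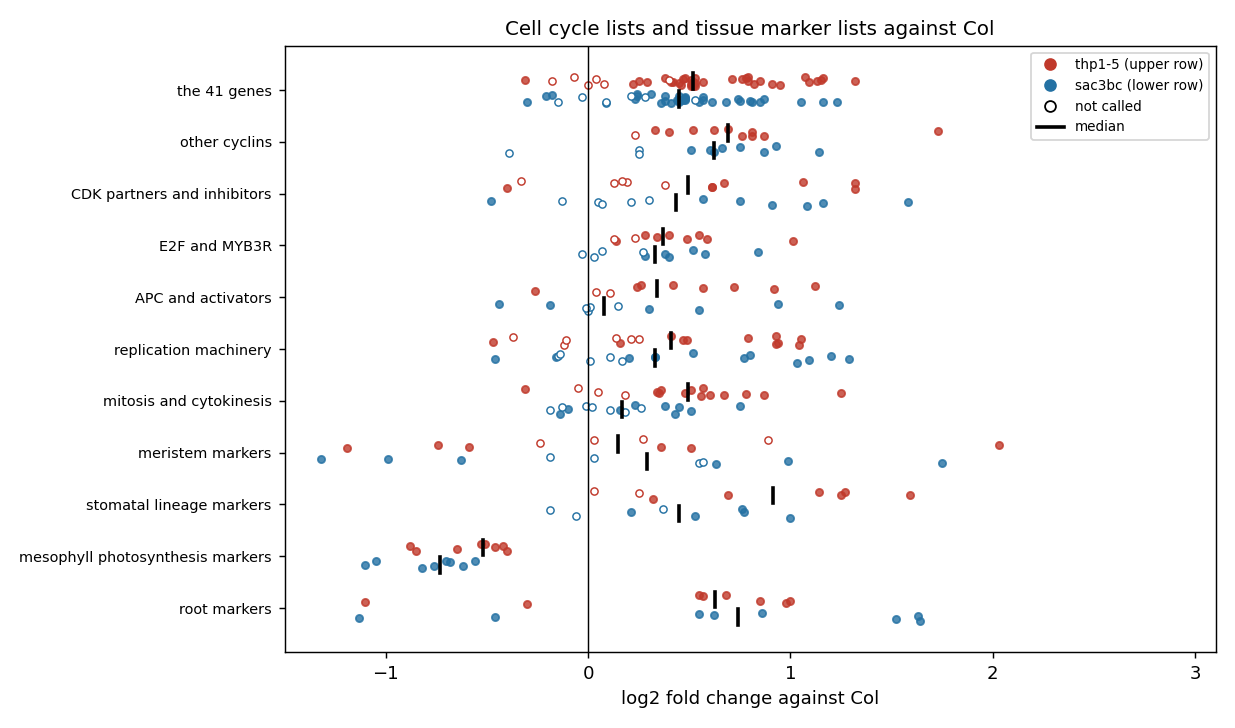
Log2 fold change against Col of each tested gene in the 41 members, in 6 lists of other cell cycle genes and in 4 lists of tissue markers, where the upper row of each pair is thp1-5, the lower is sac3bc, open points did not pass the test and the bar is the median. The medians of the cell cycle lists lie above 0 in both mutants, the mesophyll markers all lie below 0, and the meristem markers lie on both sides.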

How the data were processed

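Poly(A) RNA libraries were sequenced as single-end reads of 150 nt, per the labels. The deposited files give raw read counts and a length per locus. The submitters' processing notes name STAR and DESeq2, without roles. The counting program, strand setting, build and annotation are named in no source used here. Of 37051 loci with exons in RefSeq's TAIR10.1, 99.51% had a deposited length equal to their exon union, all 41 members among them, so that annotation was used for names, overlaps and sequences.

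The deposited counts were fitted with edgeR 4.0.16 in R 4.3.3 (TMM, filterByExpr at a minimum count of 10, robust quasi-likelihood F-test, 1 model of 3 groups over all 9 libraries, two-sided tests), with Benjamini-Hochberg adjustment over 22400 genes. edgeR's common coefficient of variation between libraries was 0.0284. Standard errors were derived from the fold change and its F statistic and are approximate. CPM and RPKM were computed from the deposited counts and lengths. The script was tested on simulated data. Near-identical loci were searched with BLAST 2.17.0 (at least 95% over 150 bases). DESeq2 1.42.0, total counts, no filter, each library left out, a replicate block, 2-group fits and leaving out loci with shared exonic bases were alternatives.

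The members and lists were chosen with earlier results of these data known. Of 125 list entries, 8 were left out, since their locus has another name in the reference. Per-library values are given for the members with the largest and smallest change of each role and those called between the mutants at the largest folds. Outside the members, up to 3 called genes per list and comparison with the smallest adjusted p could be named. WUS, CLV3, WOX5 and GL2 were named after their values were seen.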

Additional observations from a re-analysis of the deposited data

How the results depend on the processing

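Counts of called members and their medians were recomputed under each alternative. With total counts, 38 members were higher and 0 lower in thp1-5, and 39 higher and 0 lower in sac3bc, with medians of 0.805 in thp1-5 and 0.784 in sac3bc, while between the mutants 9 were higher and 1 was lower in thp1-5, with a median of 0.065. All genes shifted with it, by 0.29 in thp1-5 and 0.34 in sac3bc. Of 22400 genes, total counts called 12538 higher and 3614 lower in thp1-5, and 13625 higher and 3636 lower in sac3bc. Between the mutants 1765 were then higher and 3703 lower in thp1-5. Total counts turned the sign of PCNA2 in thp1-5 (0.216) and, in sac3bc, of CYCD3;2 (0.159), CYCD3;3 (0.187) and AUR2 (0.308), all then called higher. Without a call, it also turned CYCD3;3 in thp1-5 (0.104), CYCD3;1 (0.122) and CDKA;1 (0.033) in sac3bc, and CDKB1;1, MCM3 and MCM5 between the mutants. DESeq2 gave a median of 0.434 in sac3bc and 7 members higher in thp1-5 than in sac3bc, beside 1981 of 23013 genes. With the loci that share exonic bases left out, 24 members remained. Of these, 20 were higher and 1 was lower in each mutant, and 3 were higher in thp1-5 than in sac3bc. Of 14505 genes in that fit, 4788 were higher in thp1-5, 5224 in sac3bc and 1886 in thp1-5 against sac3bc. The medians of the members were then 0.516 in sac3bc and 0.079 between the mutants. Leaving out 1 library at a time gave 32 to 34 higher and 1 to 2 lower in thp1-5, 28 to 32 higher and 1 to 3 lower in sac3bc, and 8 to 10 higher between the mutants. Of 22606 to 22709 genes in these fits, 6616 to 6796 were higher and 6744 to 6827 lower in thp1-5. In sac3bc 7283 to 7534 were higher and 7011 to 7161 lower, and between the mutants 2232 to 2341 were higher in thp1-5. The medians of the members ran from 0.496 to 0.559 in thp1-5, 0.41 to 0.466 in sac3bc and 0.077 to 0.114 between the mutants. The cause of these moves was not tested, apart from the fewer members and libraries. Libraries with the same replicate number did not deviate together (r of -0.009 to 0.038). The fit with a replicate block gave 34 higher and 1 lower in thp1-5, 31 and 3 in sac3bc, and 11 and 0 between the mutants. No filter and 2-group fits left the counts as they were. Depth limits CYCA2;1, at about 1 CPM, most.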
